A study of Mus musculus with 12 samples.

Results

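Histone modifier and reader genes were taken as the protein-coding mouse genes whose symbols begin with Kmt, Setd, Kat, Kdm, Hdac, Sirt, Brd or Chd followed by a digit. The RefSeq gene table of GRCm38.p6 held 79 such genes among the 21883 protein-coding genes of the autosomes, X and Y. They comprised 8 Kmt, 8 Setd, 8 Kat, 18 Kdm, 11 Hdac, 7 Sirt, 9 Brd and 10 Chd genes. The symbol rule used no measured value and also takes in Brd3os and Brd8dc, which share a name with a bromodomain gene. A gene was counted as having a peak when a deposited peak overlapped its span or the 5 kb on either side.

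The peaks came from chromatin immunoprecipitation and sequencing (ChIP-seq) of MACF1, a large protein that links actin filaments and microtubules, in MC3T3-E1, a mouse osteoblast line grown from calvaria. One set of cells carried a MACF1 knockdown and the other was labelled control, and the study asked where MACF1 bound the genome in each. The 12 samples formed 4 groups of 3: knockdown immunoprecipitates, knockdown inputs, control immunoprecipitates and control inputs, labelled 1, 2 and size3 in each. The agent used for the knockdown, its efficiency, the meaning of size3 and whether the libraries came from separate cultures are not given in the sources used here. The 6 peak lists carry no expression values, so neither the loss of MACF1 nor the osteoblast label was checked against a transcript.

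Chromatin is marked by enzymes that write, erase and read chemical groups on histone tails. Kmt and Setd genes encode mainly lysine methyltransferases and Kat genes lysine acetyltransferases, while Kdm genes encode demethylases and Hdac and Sirt genes deacetylases. Bromodomain proteins of the Brd genes bind acetylated lysines, and most Chd proteins are chromodomain helicases that move nucleosomes. In osteoblasts, deacetylases such as HDAC4 and HDAC7 are known to repress the bone transcription factor RUNX2, and the demethylases KDM4B and KDM6B are known to promote osteogenic differentiation of human mesenchymal stem cells.

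The promoter windows below are those of members that were overlapped by a knockdown peak, shown so that the sequence under the ChIP signal can be read beside the values. Each is a RefSeq window of GRCm38.p6, 300 bases long, from 250 bases before to 50 bases after a listed gene start, printed 5′ to 3′ on the strand of the gene. Setd2 was the member whose promoter window lay under a region found in more than 1 knockdown library, and the other 4 had the highest fold enrichment of the peak over the window, taken across knockdown 1 and knockdown size3 although folds run higher in the knockdown size3 list. The windows were Setd2 at chr9:110532347-110532646 on the plus strand, Sirt1 at chr10:63338986-63339285 on the minus strand, Sirt3 at chr7:140882260-140882559 on the minus strand, Kdm4d at chr9:14500433-14500732 on the minus strand and Kmt5a at chr5:124439680-124439979 on the plus strand. Capitals mark matches on either strand to the GC box GGGCGG, the E2F core GCGGGA, the E-box CAGCTG or the TCF/LEF core CTTTGA, and adjoining matches run together because GGGCGG and GCGGGA can share bases.
Setd2: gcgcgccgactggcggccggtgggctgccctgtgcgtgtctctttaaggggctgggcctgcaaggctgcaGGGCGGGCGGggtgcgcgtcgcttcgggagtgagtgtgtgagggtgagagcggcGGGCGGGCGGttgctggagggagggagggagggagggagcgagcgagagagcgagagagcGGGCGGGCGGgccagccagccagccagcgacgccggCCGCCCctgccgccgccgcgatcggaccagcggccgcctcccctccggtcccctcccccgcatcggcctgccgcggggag
Sirt1: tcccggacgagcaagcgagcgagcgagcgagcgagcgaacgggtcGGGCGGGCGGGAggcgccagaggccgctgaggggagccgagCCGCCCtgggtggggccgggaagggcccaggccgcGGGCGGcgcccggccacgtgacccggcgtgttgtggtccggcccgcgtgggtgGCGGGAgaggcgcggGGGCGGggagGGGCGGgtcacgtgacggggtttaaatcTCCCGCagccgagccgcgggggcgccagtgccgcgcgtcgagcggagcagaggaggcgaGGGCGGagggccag
Sirt3: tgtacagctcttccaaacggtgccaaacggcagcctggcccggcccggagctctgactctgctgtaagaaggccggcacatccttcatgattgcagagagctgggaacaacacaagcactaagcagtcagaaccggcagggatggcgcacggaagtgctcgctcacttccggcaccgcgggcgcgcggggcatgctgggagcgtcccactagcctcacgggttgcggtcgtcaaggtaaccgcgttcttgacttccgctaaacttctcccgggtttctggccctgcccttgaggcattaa
Kdm4d: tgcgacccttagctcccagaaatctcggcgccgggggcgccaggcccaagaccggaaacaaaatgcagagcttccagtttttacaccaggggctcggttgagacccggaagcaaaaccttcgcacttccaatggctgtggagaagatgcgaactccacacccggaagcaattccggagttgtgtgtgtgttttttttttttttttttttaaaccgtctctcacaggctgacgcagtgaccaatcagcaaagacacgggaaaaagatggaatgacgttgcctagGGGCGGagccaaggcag
Kmt5a: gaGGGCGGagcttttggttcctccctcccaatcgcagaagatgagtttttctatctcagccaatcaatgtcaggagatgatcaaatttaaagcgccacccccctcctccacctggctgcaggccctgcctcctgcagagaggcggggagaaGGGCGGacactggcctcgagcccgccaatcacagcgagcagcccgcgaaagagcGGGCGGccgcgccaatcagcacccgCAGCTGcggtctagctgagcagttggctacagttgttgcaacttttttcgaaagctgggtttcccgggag
The Setd2 window held 77.3% G and C, with 7 GC boxes and no other match. The Sirt1 window, still richer in G and C, held 7 GC boxes and 3 E2F cores. The Kmt5a window held 3 GC boxes and 1 E-box, the Kdm4d window 1 GC box, and the Sirt3 window none of the motifs. The Kdm4d window lay under a knockdown 1 peak with a fold of 7.03 from 47 reads, which also lies in the neighbouring gene Cwc15. The Kmt5a window lay under a knockdown size3 peak with a fold of 6.83 from 32 reads. A match describes letters in the window and is not evidence of a bound factor.

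The knockdown peak lists were longer than the control lists throughout the genome. The 3 knockdown lists, 1, 2 and size3, held 21398, 4513 and 17592 peaks, against 772, 198 and 2196 in the 3 control lists. Within each of the labels 1, 2 and size3, the knockdown immunoprecipitate had fewer reads after duplicate removal than the control one, with 5575205 to 18454330 reads in knockdown and 10698067 to 33085606 in control. Redundant read rates were 0.51, 0.65 and 0.02 in knockdown, against 0.25, 0.16 and 0.01 in control. Peaks with a caller false discovery rate of at most 5% numbered 21159, 51 and 10161 in the knockdown lists, against 1, 0 and 0 in the control lists. Knockdown 2 stood apart from the other knockdown lists, with the fewest reads, the highest redundant rate and 98.4% of its peaks at a false discovery rate of 100%, as were 99.7% in control 1 and every peak in control 2. Library by library counts are given, and the pooled counts over all members also without knockdown 2. The part of read depth, duplicates and input in the difference between knockdown and control was not tested.

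Members carried peaks in the knockdown libraries more often than protein-coding genes at large, and hardly any in the control libraries. Knockdown 1 had a peak at 52 of the 79 members (65.8%, against 43.7% of all protein-coding genes). Knockdown 2 had one at 17 members (21.5%, against 7.95% of all genes), and knockdown size3 at 42 members (53.2%, against 35.4%). Control 1 had none (0 of 79, Wilson upper limit 4.64%, against 1.38% of all genes). Control 2 had one at 1 member (1.27%, against 0.315%), and control size3 at 4 members (5.06%, against 5.49%), the last being close to the share over all genes. Members are longer than most genes, and shares by gene length are given below. No knockdown library overlapped a control library in the number of members with a peak. The same held over all genes, with 7.95 to 43.7% in the knockdown lists against 0.315 to 5.49% in the control lists, so this separation is not particular to the members. With 3 libraries against 3, an exact permutation test could not give a p under 0.1, and none was run on a list chosen with earlier results known.

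**Figure D1:**
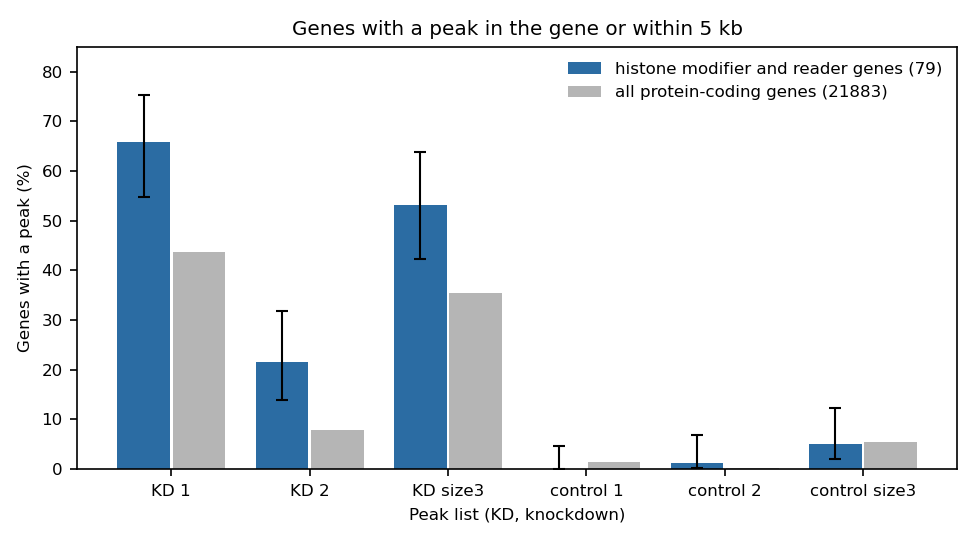
Percent of genes with a MACF1 ChIP peak in the gene or within 5 kb, by peak list, for the 79 histone modifier and reader genes (blue, with 95% Wilson intervals over genes) and all 21883 protein-coding genes (grey). The blue bar is above the grey one in all 3 knockdown lists, at 65.8%, 21.5% and 53.2%, while the control lists stay between 0 and 5.06%.

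At equal list lengths the shares were lower. They were counted over the 4513 highest-scoring peaks of each knockdown list, the length of the shortest. Knockdown 1 then had peaks at 28 members (35.4%, against 16.8% of all genes) and knockdown 2 at the same 17 as before, since its list has that length. Knockdown size3 had peaks at 15 of the 79 members, against 14.0% of all genes. The member share stayed above that of all genes in each. Among peaks with a false discovery rate of at most 5%, 52, 0 and 26 members had a peak in knockdown 1, 2 and size3, against 43.2%, 0.032% and 25.1% of all genes. No gene of the whole table had such a peak in a control list.

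Of the 79 members, 60 had a peak in at least 1 knockdown library and in no control library (75.9%, against 52.0% of all genes). Peaks in both conditions were found at 5 members (6.33%, against 5.72% of all genes), and in control alone at none (against 0.982%). Both are close to the background when gene length is left aside. No peak in any list was found at 14 members (17.7%, against 41.3% of all genes), namely Brd3os, Brd7, Brd8dc, Hdac2, Hdac6, Hdac10, Kdm3a, Kdm4c, Kdm5d, Kdm6a, Setd3, Sirt2, Sirt4 and Sirt5. Peaks in 1 list were found at 25 members (31.6%, against 30.6% of all genes), in 2 lists at 30 of 79 (against 22.0%), in 3 lists at 9 (11.4%, against 5.02%) and in 4 lists at 1, Kat2b (1.27%, against 0.896%). These counts include knockdown 2, which was the only knockdown list with a peak at 4 members (5.06%, against 2.01%). Without it, 56 members had a peak in knockdown 1 or size3 and in no control library (70.9%, against 50.2%), and 18 had no peak (22.8%, against 43.1%).

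**Figure D2:**
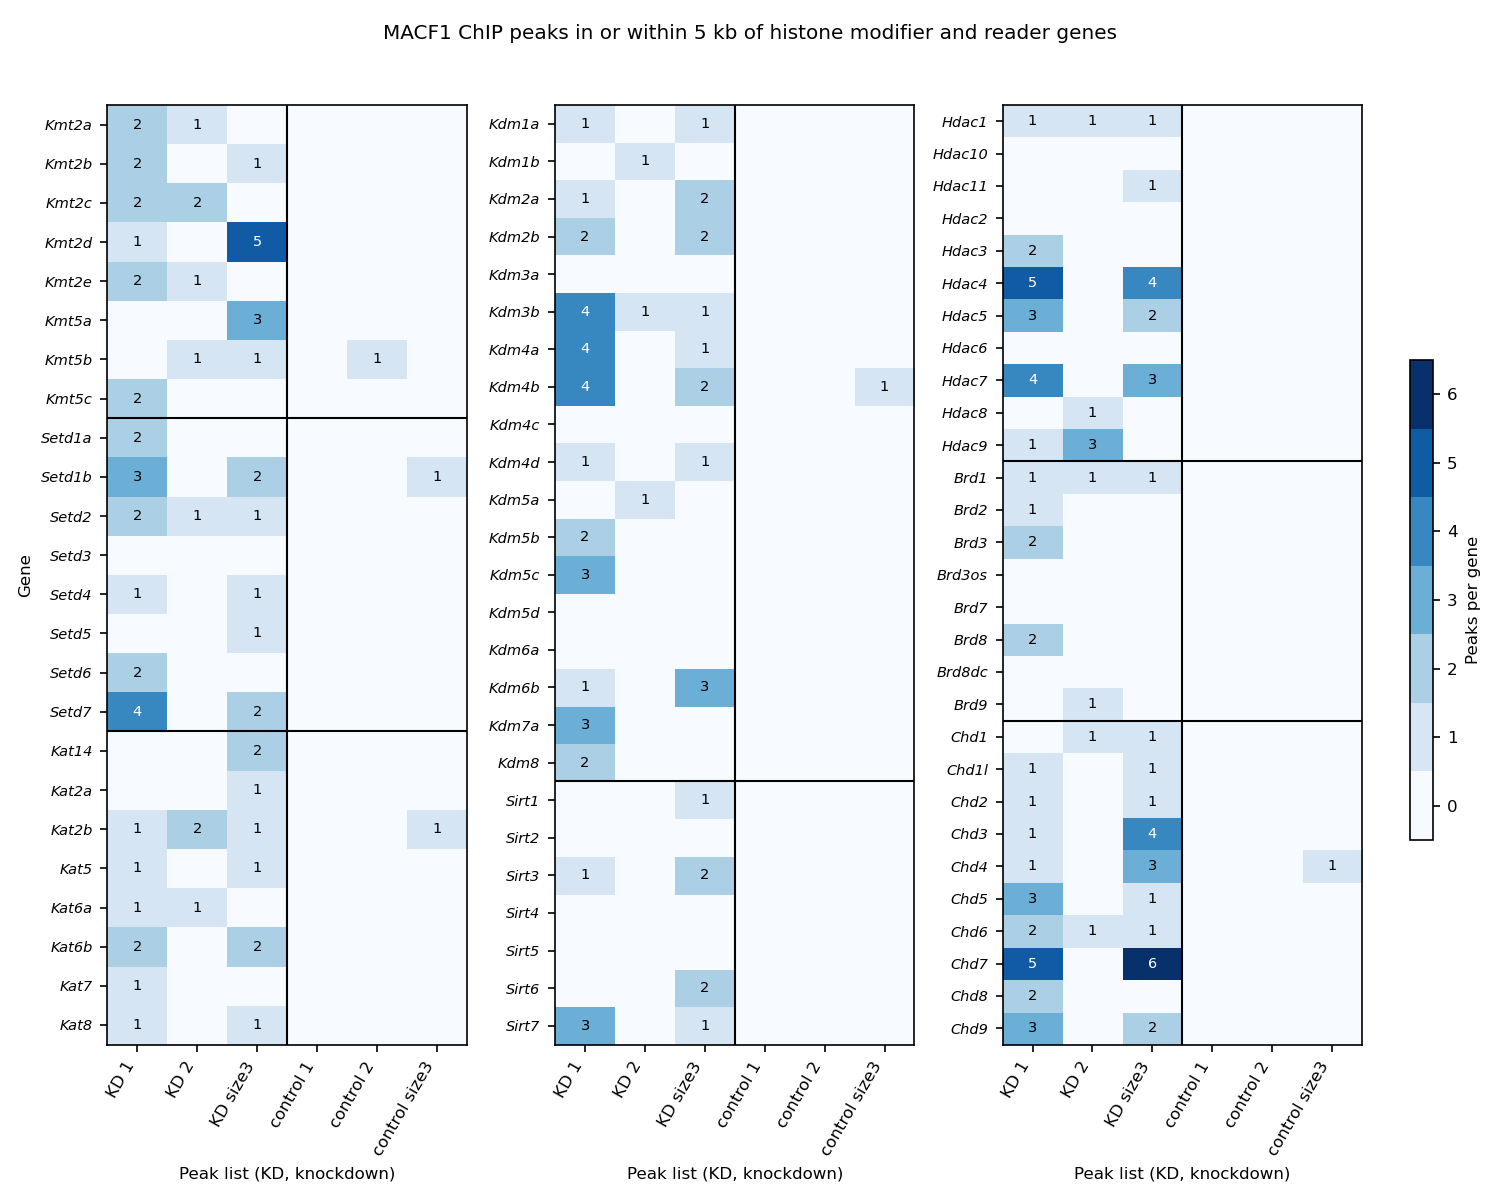
Number of MACF1 ChIP peaks in or within 5 kb of 78 of the 79 genes (rows, by family) in the 3 knockdown and 3 control peak lists (columns). Counts run up to 6 for Chd7 in knockdown size3, and the filled cells in the control columns are those of Kmt5b, Setd1b, Kat2b, Kdm4b and Chd4.

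Members are long genes, and length went with having a peak. The median member spanned 43.1 kb, against 17.2 kb over all protein-coding genes, from 1.79 kb for Brd3os to 870.0 kb for Hdac9. All genes were divided into 3 equal length bins at 8.73 and 31.2 kb, and the short, middle and long bins held 8, 23 and 48 members. In knockdown 1, peaks were found at 50.0%, 56.5% and 72.9% of the members in the short, middle and long bin, against 24.6%, 42.8% and 63.8% of all genes. In knockdown size3 the shares were 50.0%, 47.8% and 56.2% of members, against 18.3%, 34.0% and 54.0% of all genes. In knockdown 2 they were 0, 8.7% and 31.2% of members, against 1.54%, 4.18% and 18.1%. In the long bin, which holds most members, the share in knockdown size3 was close to that of all genes. Control size3 had peaks at 6.25% of members in that bin, below the 11.1% of all genes. Control 1 had them at 0 members there, against 3.37%, and control 2 at 2.08%, against 0.768%.

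Across the 79 members, the number of peaks and gene length had a Spearman rho of 0.28 in knockdown 1 and 0.08 in knockdown size3. Over all protein-coding genes the same measures gave 0.41 and 0.38. The points of each share a single library, so these values describe the lists only.

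**Figure D3:**
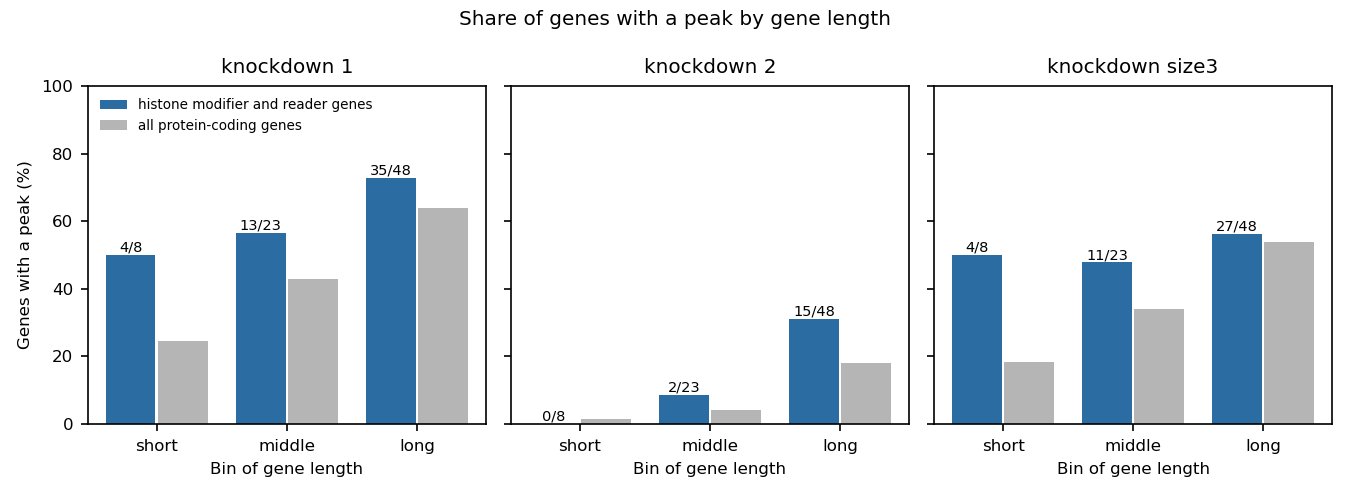
Percent of genes with a peak in knockdown 1, knockdown 2 and knockdown size3 within 3 bins of gene length set on all protein-coding genes, for histone modifier and reader genes (blue, with counts above) and all protein-coding genes (grey). In the long bin the bars stand at 72.9% and 63.8% in knockdown 1 and at 56.2% and 54.0% in knockdown size3.

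Consensus regions, where peaks of at least 2 of the 3 libraries of a condition overlapped by at least 1 bp, were found at 12 members in knockdown (15.2%, Wilson interval 8.91 to 24.7%, against 8.52% of all genes) and at 0 members in control (0 of 79, upper limit 4.64%, against 0.064%). Consensus regions also went with gene length. In the short, middle and long bins they were found at 0 of 8, 3 of 23 and 9 of 48 members in knockdown. These are 0, 13.0% and 18.8%, against 4.92%, 7.73% and 12.9% of all genes, so part of the gap goes with length. The 12 members held 14 of the 2010 knockdown regions, and all 14 joined knockdown 1 with knockdown size3. Peaks of both knockdown 1 and knockdown size3 were found at 33 members (41.8%, against 23.4% of all genes). Overlapping peaks of the 2 lists were counted at 12 of the 33 (36.4%), against 1816 of 5131 among all genes (35.4%). At Sirt3, 1 of the 12, the knockdown size3 peak of the overlap lay outside the 5 kb window. Of the 14 regions, 8 lay inside the gene, 3 across a gene end and 3 in the flank. Knockdown 2 joined none of them, so the count without it is also 12, and without knockdown 1 or without knockdown size3 it is 0. With peaks at a false discovery rate of at most 5% the count is 6 members. The 21 member peaks of knockdown 2 all had a caller false discovery rate of 100%.

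For the family and subfamily counts below, the shares over all genes were 43.7%, 7.95% and 35.4% in knockdown 1, 2 and size3. In the long bin they were 63.8%, 18.1% and 54.0%. Knockdown consensus regions were found at 8.52% of all genes and at 12.9% of those in the long bin. Of all genes, 52.0% had a peak in knockdown alone and 5.72% in both conditions. Among the lysine methyltransferases, all 8 Kmt genes had a peak in at least 1 knockdown library, with 6, 4 and 4 of them in knockdown 1, 2 and size3. Most Kmt2 genes encode large methyltransferases of the mixed-lineage leukaemia type acting at active promoters and enhancers. All 5 Kmt2 genes had a peak in knockdown 1, and 3 and 2 of them in knockdown 2 and size3. Kmt2d had 1, 0 and 5 peaks in knockdown 1, 2 and size3, against none in any control list. The 5774-bp region chr15:98860997-98866770 inside Kmt2d was shared, with fold enrichments of 3.42 from 383 reads in knockdown 1 and 4.40 from 53 reads in knockdown size3. Kmt2a had 2, 1 and 0 peaks, and its knockdown 1 peak at chr9:44879398-44882908 had its summit 415 bp from a listed start. Of the 3 Kmt5 genes, 1, 1 and 2 had a peak in the knockdown lists. Kmt5b, which dimethylates and trimethylates histone H4, had 0, 1 and 1 peaks in the knockdown lists and was the member with a peak in control 2. That control peak, chr19:3792551-3793473, had a fold of 5.63 from 41 reads at a false discovery rate of 100% and lay 17638 bp from the nearest knockdown peak at the gene.

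Of the 8 Setd genes, 6, 1 and 5 had a peak in knockdown 1, 2 and size3, and 2 had a consensus region. Setd2 encodes the methyltransferase that marks the bodies of transcribed genes, and it had 2, 1 and 1 peaks in the knockdown lists and none in the control lists. Its region chr9:110531728-110533546 covered the whole printed promoter window, with a fold of 3.46 from 138 reads in knockdown 1 and 5.51 from 22 reads in knockdown size3. The knockdown 1 summit lay 264 bp inside the nearest listed start, and the knockdown size3 summit lay 201 bp outside the gene at the same end. Setd7, a monomethyltransferase of histone H3 and other proteins, had 4, 0 and 2 peaks, and its shared region was at chr3:51515978-51516809 near the gene end opposite the start. Fold there was 4.45 in knockdown 1 and 7.76 in knockdown size3. Setd1b, a methyltransferase of the Set1 complex, had 3, 0 and 2 peaks in knockdown and 1 in control size3. The knockdown 1 peak chr5:123147292-123153194, with a fold of 4.23 from 332 reads, held the control size3 peak chr5:123152552-123153171, which had a fold of 10.66 from 16 reads at a false discovery rate of 79.17%. That control peak was the only one of the 5 control peaks at members to overlap a knockdown peak.

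Every one of the 8 acetyltransferase genes had a peak in at least 1 knockdown library, 6, 2 and 6 of them in knockdown 1, 2 and size3. None had a consensus region, and 8 genes are too few to set this apart from the 8.52% of all genes. Kat2b encodes PCAF, a coactivator acetyltransferase, and had 1, 2 and 1 peaks in the knockdown lists, against 0, 0 and 1 in the control lists. Its 5 peaks were spread along 105948 bp with no overlap, and the nearest knockdown peak was 26845 bp from the control one. Fold enrichment was 7.19 in knockdown 1, 13.00 and 19.87 in knockdown 2, 10.86 in knockdown size3 and 8.33 in control size3. Kat6a, a MYST-family acetyltransferase, had 1, 1 and 0 knockdown peaks with folds of 4.90 and 15.6. All 5 MYST genes had a peak in knockdown 1, and 1 and 3 of them in knockdown 2 and size3.

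Among the 18 demethylase genes, 12, 3 and 8 had a peak in knockdown 1, 2 and size3, and 3 had a consensus region. Kdm4b, a Jumonji demethylase acting on histone H3, had 4, 0 and 2 peaks in knockdown and 0, 0 and 1 in control. Its peaks were broad: the shared region chr17:56366402-56375408 spanned 9007 bp, the widest of the 14, with a fold of 2.98 from 670 reads in knockdown 1 and 3.77 from 60 reads in knockdown size3. The control size3 peak lay elsewhere in the gene, 6749 bp from the nearest knockdown peak. Kdm3b, also a Jumonji demethylase, had 4, 1 and 1 knockdown peaks and no control peak. Its shared region lay inside the gene on chromosome 18, 29692 bp from the nearer end, with folds of 4.48 from 67 reads and 7.35 from 12 reads. Kdm2a, a CpG-island-binding demethylase, had 1, 0 and 2 peaks and a region across a gene end, chr19:4396382-4398841, with folds of 2.99 and 4.50. The gene 9430078G10Rik lies at the same place, so the region cannot be given to Kdm2a alone. Of the 6 Kdm5 and Kdm6 genes, 3, 1 and 1 had a peak in the knockdown lists. The related Kdm6a and Kdm5d, on the X and Y chromosomes, were among the members with no peak.

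The classical deacetylase genes held a peak at 6, 3 and 5 of 11 members in knockdown 1, 2 and size3. Class IIa, which shuttles between cytoplasm and nucleus and represses RUNX2 and MEF2 targets, comprised Hdac4, Hdac5, Hdac7 and Hdac9, and all 4 had a peak in knockdown 1, with 1 of them in knockdown 2 and 3 in knockdown size3. Together they held 13, 3 and 9 peaks in the knockdown lists and none in the control lists. Hdac7 had 4, 0 and 3 peaks and 2 shared regions. That inside the gene, chr15:97799274-97803022, had folds of 3.36 from 259 reads and 6.0 from 28 reads, and that in the flank, chr15:97785553-97790775, had folds of 3.57 and 4.81 and lay in the neighbouring gene Slc48a1. Hdac9, the longest member, had 1, 3 and 0 peaks, none closer than 106264 bp to a gene end. Hdac1, a class I deacetylase of the Sin3 and NuRD complexes, had 1 peak in each knockdown list and none in control. Its knockdown 1 and size3 peaks overlapped at chr4:129512997-129514900, in the flank and within Marcksl1, with folds of 3.44 and 6.79, while the knockdown 2 peak lay inside Hdac1 with a fold of 25.7 from 17 reads. Of the 4 class I genes, 2, 2 and 1 had a peak in the knockdown lists, and Hdac2 had none in any list. The grouping into class IIa, Kmt2, MYST and other subfamilies was chosen after the values were seen.

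The sirtuins, deacetylases that use NAD, had peaks at 2, 0 and 4 of 7 genes in knockdown 1, 2 and size3. Sirt3, the main mitochondrial deacetylase, had 1, 0 and 2 peaks. A shared region in its flank, chr7:140853271-140859283, had folds of 4.07 in knockdown 1 and 7.24 in knockdown size3, but it lay beside Ric8a, Bet1l and Odf3, and only the knockdown 1 peak reached to within 5 kb of Sirt3. The printed Sirt3 window lay under a separate knockdown size3 peak with a fold of 8.40 from 23 reads and a summit 120 bp from the listed start. Sirt1, which deacetylates histones and transcription factors, had a single peak, in knockdown size3, with a fold of 11.2 from 22 reads and a summit 450 bp before the listed start. Sirt7, a nucleolar sirtuin, had 3, 0 and 1 peaks, the nearest with its summit 125 bp from a listed start. Sirt7 is 6644 bp long and its peaks were shared with the flanks of Mafg and Pcyt2.

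Among the bromodomain genes 5, 2 and 1 of 9 had a peak in knockdown 1, 2 and size3. None had a consensus region, and 9 genes are too few to set this apart from the 8.52% of all genes. Brd1, a subunit of MYST acetyltransferase complexes, was the Brd gene with a peak in all 3 knockdown lists. Its folds were 5.27, 18.81 and 5.82 in knockdown 1, 2 and size3, at separate places, and it had no control peak. The knockdown 2 peak, at a false discovery rate of 100%, had its summit 5010 bp outside the gene and reached the 5 kb window only by its edge. Brd9, a subunit of a SWI/SNF complex, had 1 peak, in knockdown 2, at the gene end opposite its start.

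The Chd genes had the highest share with a peak of the 8 families in both larger knockdown lists. In knockdown 1 and in knockdown size3, 9 of the 10 had a peak (90.0% in each, against 43.7% and 35.4% of all genes), with 19 and 20 peaks. A consensus region was found at 3 of the 10 (30.0%, against 8.52% of all genes). The order of the families rests on 7 to 18 genes each, and the Chd genes were also long, with a median of 63.8 kb. Chd7, a remodeller mutated in human CHARGE syndrome, had 5, 0 and 6 peaks in the knockdown lists and none in the control lists. Its shared regions lay near both ends of the gene. That across the lower-coordinate end, chr4:8689723-8692399, had folds of 4.12 from 217 reads and 5.6 from 17 reads, and that near the other end, chr4:8865591-8866784, had folds of 3.66 and 6.30.

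Chd9 had 3, 0 and 2 knockdown peaks, and its shared region chr8:90861963-90862668 had folds of 5.36 from 27 reads in knockdown 1 and 17.33 from 17 reads in knockdown size3. The value of 17.33 was the highest of any member peak in the knockdown size3 list. Chd3 and Chd4 encode the helicases of the NuRD co-repressor complex. Chd3 had 1, 0 and 4 peaks and a shared region at chr11:69359269-69362350, with folds of 3.80 in knockdown 1 and 7.73 in knockdown size3 and summits at 69361116 and 69361126. Chd4 had 1, 0 and 3 peaks in knockdown and 0, 0 and 1 in control, and the control peak lay in the flank 11861 bp from the nearest knockdown peak. Chd6 had 2, 1 and 1 knockdown peaks at separate places inside the gene, with folds of 10.18 and 6.22 in knockdown 1, 18.2 in knockdown 2 and 9.45 in knockdown size3.

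Another 42 members had a peak, Sirt1, Kdm4d and Kmt5a among them, and those with a control peak have been given above. Of the 42, 31, 6 and 23 had a peak in knockdown 1, 2 and size3, with 62, 7 and 35 peaks. Their folds ran from 2.84 to 10.67 in knockdown 1 with a median of 4.41, from 12.85 to 20.8 in knockdown 2 with a median of 15.6, and from 4.2 to 11.2 in knockdown size3 with a median of 7.0. Hdac4, the class IIa deacetylase known for holding back chondrocyte hypertrophy, had the most peaks among them, 5 in knockdown 1 and 4 in knockdown size3, at places that did not overlap between the lists. The highest folds were those of Chd2 in knockdown 1, Kdm1b in knockdown 2 and Sirt1 in knockdown size3. Apart from Sirt1, these names were chosen after their values were seen.

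**Figure D4:**
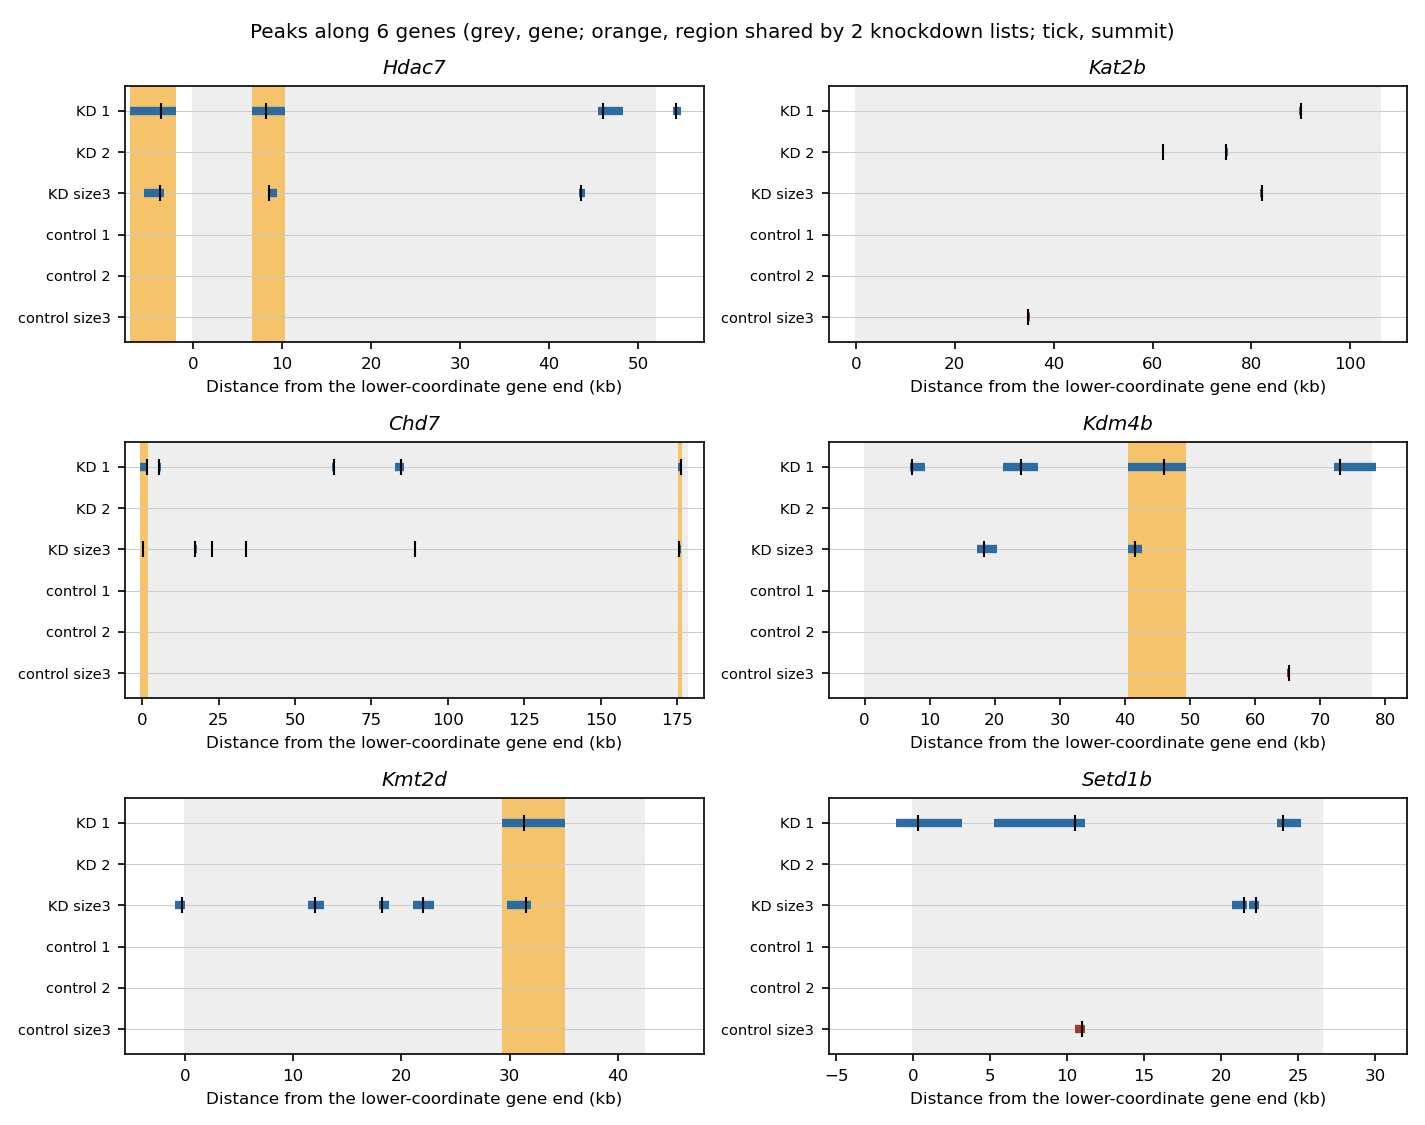
Peaks of the 6 lists along Hdac7, Kat2b, Chd7, Kdm4b, Kmt2d and Setd1b, plotted as distance in kb from the lower-coordinate gene end (knockdown blue, control red, tick at each summit, gene span grey, consensus regions orange). Hdac7 and Chd7 each have 2 orange regions, Kat2b and Setd1b have none, and the control size3 peak of Setd1b lies below its second knockdown 1 peak.

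In the 2 larger lists, member peaks had a lower median fold than the whole list, and a greater median width and read count. The median fold enrichment, as given by the authors, was 4.24 at members in knockdown 1 against 4.98 over that list, and 6.81 in knockdown size3 against 8.10. In knockdown 2 it was 18.2 against 15.6. Median width was 1565 bp against 990 bp in knockdown 1, 351 against 359 bp in knockdown 2, and 789 against 647 bp in knockdown size3. The median number of reads was 84.5 against 46 in knockdown 1, 9 against 9 in knockdown 2, and 22 against 17 in knockdown size3. A false discovery rate of at most 5% was met by 105 of 108 member peaks in knockdown 1, 0 of 21 in knockdown 2 and 37 of 76 in knockdown size3, and by none of the 5 control peaks.

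Most member peaks lay inside the genes rather than within 1 kb of their ends, as did most peaks over all genes. The ends are a small part of a gene window, with a median member span of 43.1 kb. Peaks per base were not counted, so this does not show that peaks avoid gene ends. Summits elsewhere in the gene made up 70.4% at members against 62.6% over all gene and peak pairs in knockdown 1. The shares were 85.7% against 82.7% in knockdown 2 and 61.8% against 65.9% in knockdown size3. Summits within 1 kb of either gene end made up 16 of 108 in knockdown 1 (14.8%, Wilson interval 9.33 to 22.7%), against 21.4% over all gene and peak pairs. They made up 16 of 76 in knockdown size3 (21.1%, 13.4 to 31.5%), against 18.6%. In knockdown 2 they were 1 of 21 (4.76%), against 3.27%. The members' interval holds the value of all genes in each of the knockdown lists. It treats gene and peak pairs as separate, although several can share a gene and all share a library, so it is no test of a difference. Strand was known for the 60 members in the promoter table, where 12 of 75 summits were within 1 kb of a listed start in knockdown 1 (16.0%, against 21.2% of all genes) and 7 of 52 in knockdown size3 (13.5%, against 16.8%). At the opposite end there were 3 (4.0%, against 4.15%) and 6 (11.5%, against 4.96%).

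The 60 members had 86 promoter windows. Peaks overlapped 18 of them in knockdown 1 (20.9%, against 16.0% of the 21262 windows of 17491 genes), 0 in knockdown 2 (against 0.0235%) and 8 in knockdown size3 (9.3%, against 7.55%). Knockdown consensus regions overlapped 1 member window, that of Setd2 (1.16%, against 3.09% of all windows). Chd7 and Kdm2a, whose regions also crossed a gene end, have no promoter window and could not be counted. No control peak overlapped a member window. The windows overlapped in knockdown size3 were rich in G and C, with a median of 73.8% against 61.5% for the member windows not overlapped. In knockdown 1 the medians were 65.8% and 61.5%. Over all genes, the median was 64.0% for windows overlapped in knockdown 1, against 54.7% for the rest, and 63.2% for those overlapped in knockdown size3, against 55.7%.

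The GC box was found in 57 of the 86 member windows (66.3%, against 46.2% of all windows) and the E2F core in 32 (37.2%, against 25.8%). The E-box was found in 15 (17.4%, against 15.6%) and the TCF/LEF core, the letters bound by the effectors of Wnt signalling, in 6 (6.98%, against 14.4%). Member windows had a median of 62.0% G and C, against 56.3% over all windows, so the base composition moves with these shares. Its part in them was not tested.

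Some member peaks can also be counted to a neighbouring gene. Of them, 32 of 108 in knockdown 1, 3 of 21 in knockdown 2 and 23 of 76 in knockdown size3 were also within 5 kb of another protein-coding gene. Counting peaks that touched no other gene's window left 37, 14 and 31 members in the knockdown lists and 0, 1 and 4 in the control lists. This count was not made over all genes, so it does not show whether members stay above them.

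A list of 128 other chromatin genes had a median length of 47.0 kb. It comprised Polycomb, methyltransferase, acetyltransferase, demethylase, co-repressor, remodeller and reader genes. Peaks were found at 80 of them in knockdown 1 (62.5%, against 43.7% of all genes) and at 67 in knockdown size3 (52.3%, against 35.4%). Knockdown 2 had peaks at 25 (against 7.95% of all genes). The members' shares of 65.8% and 53.2% in knockdown 1 and size3 were close to these, so shares above all genes are not particular to the members. The control lists had peaks at 2, 0 and 17 of them. The 17 in control size3 are 13.3% of the list, a larger share than the 5.06% of histone modifier and reader genes and the 5.49% of all genes there. Among all genes of the long bin, control size3 had a peak at 11.1%. A knockdown consensus region was found at 17 of the 128 (13.3%, against 15.2% of members and 8.52% of all genes). Of the 17, 5 were among 21 Polycomb genes, including Ezh2, Cbx7 and Cbx8, and 5 among 22 SWI/SNF and ISWI remodeller genes, including Arid1b and Arid2. These names were chosen after their values were seen. No difference between the histone modifier and reader genes and this list was tested.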

How the data were processed

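Per the submitters' processing notes, cutadapt, Bowtie2 and MACS 1.4.2 were used with GRCm38. Each deposited list came from a separate MACS run of 1 immunoprecipitate with its input, at a p cutoff of 1.00e-05 and keeping 1 read per position, per the file headers. The labels name more than 1 antibody lot without assigning them. Each peak's deposited count is the number of reads in it. The deposited score is 10 times the negative log10 of the caller's p-value. The deposited fold is the ratio of summit reads to local background, and both are the authors' values, set across lists only to order printed promoters and to rank genes within families. The deposited false discovery rate, in percent, comes from swapping immunoprecipitate and input. Peak calls depend on depth, duplicates and input.

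Peaks were overlapped with RefSeq gene spans of GRCm38.p6 extended by 5 kb, by at least 1 bp, in Python 3.11.15 with pandas 2.3.3. Promoter windows were matched by gene identifier for 60 of 79 members. The steps were checked on simulated peaks. Wilson intervals at 95% cover counting error over genes, or over gene and peak pairs for summit positions. Genes or pairs sharing a library are not replicates, so no test was made. The members, lists and rules were chosen with earlier results of these data known. Genes described singly had a consensus region, a control peak or peaks in at least 3 libraries, were among the 2 leading genes of their family by libraries and then fold, or had a printed promoter. The alternatives were other flanks, summit position, stricter peaks, equal list lengths, other overlap rules and each library left out. Some items are not reported here.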

Additional observations from a re-analysis of the deposited data

How the results depend on the processing

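Of 47 comparisons of results above 0 with an alternative setting, 35 stayed within 1.5 times the reported count or within the reported interval. With peaks at a false discovery rate of at most 5%, members with a peak numbered 0 in knockdown 2 and 26 in knockdown size3, 0 in control 2 and 0 in control size3, and members with a knockdown consensus region numbered 6 (7.59%, against 5.16% of all genes). With the best 4513 peaks of each list, members with a peak numbered 28 in knockdown 1 and 15 in knockdown size3, and 2 had a knockdown consensus region (2.53%, against 1.43%). Both settings leave fewer peaks. Counting a peak anywhere in the gene window in at least 2 knockdown libraries gave 40 members, a count that was not made over all genes. Leaving out 1 knockdown library gave 0 to 12 members with a knockdown consensus region, with 12 when knockdown 2 was the one dropped and 0 when either of the others was. Members with a peak in control 1 and with a control consensus region numbered 0 in the report and under the alternatives, most of which could not raise the count. Summits within 2 kb of a gene end made up 28.7% in knockdown 1, since the wider limit takes in more summits. Counting peaks and regions near no other protein-coding gene was chosen after seeing the data and left 9 members with a knockdown consensus region. It too was not made over all genes. No paired analysis was made, because no result comes from a test and the sources do not say whether equal labels mark a shared culture. The knockdown 2 peaks had a median of 9 reads, and the part of depth in them was not tested.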
